A study of Oncorhynchus mykiss with 15 samples.

Results

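Pyruvate stands where glycolysis meets the mitochondrion, and the genes that decide where it goes were examined here in rainbow trout liver. The set held every gene that the deposited table names as a pyruvate dehydrogenase kinase (pdk1 to pdk4), a mitochondrial pyruvate carrier subunit (mpc1, mpc2) or a monocarboxylate transporter (slc16a1, slc16a3). It also held every gene whose product is given there as an L-lactate dehydrogenase. It came to 25 of 34965 genes, made up of 8 kinases, 5 carrier genes, 6 lactate dehydrogenases and 6 transporters. Of these, 15 reached a mean of 0.5 FPKM (fragments per kilobase of gene and per mega-fragment of the library) over all libraries and were tested. The 15 were 6 kinases, 5 carrier genes, 1 lactate dehydrogenase and 3 transporters.

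Liver RNA was sequenced from fish 150 days old in 15 libraries. Their labels form 5 groups of 3, written N, H3h, H12h, H24h and R3h, and the series concerns hypoxia of several lengths. The H labels give 3, 12 and 24 h, and the R label gives 3 h. What N, H and R stand for is not written out in the labels, so the groups keep these names. N has no time in its label and there is 1 N group for all the others, so time itself cannot be told apart from the H or R condition. No label says whether the 3 libraries of a group came from different fish, and the p-values then measure only the spread between these samples, which may be technical. Every comparison against N shares the same 3 N libraries.

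Lactate dehydrogenase converts pyruvate and lactate into each other in the cytosol, and monocarboxylate transporters carry both across the plasma membrane. The mitochondrial pyruvate carrier, a complex of MPC1 and MPC2, brings pyruvate through the inner mitochondrial membrane, and cells without either subunit import it poorly. Inside, the pyruvate dehydrogenase complex turns it into acetyl-CoA, and the pyruvate dehydrogenase kinases switch that complex off by phosphorylation. In mammals PDK1, LDHA and SLC16A3 are well known targets of the hypoxia-inducible factor HIF-1, and PDK2 and PDK4 are the kinases known from liver in feeding and fasting.

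Library totals lay between 45.4 and 70.4 M (mega-counts). Hepatocyte markers summed to between 32680 and 58350 FPKM in every library, while skeletal muscle markers did not exceed 1.37 FPKM. Macrophage markers summed to between 38.8 and 315.6 FPKM. Bile duct markers summed to 153.8 to 273.7 FPKM in N and to 110.8 to 136.4 in H12h, and the other groups overlapped with N. In H12h 28% of all tested genes also lay wholly below N in FPKM. The part of these cells in the gene levels was not tested. The hepatocyte marker genes of highest mean were transferrin (11753 FPKM) and fibrinogen gamma (10567), followed by albumin (9068). All 25 red blood cell marker genes were detected, and their summed level was 236 to 510 FPKM for N, 171 to 569 for H3h, 299 to 881 for H12h, 642 to 2094 for H24h and 333 to 1422 for R3h. R3h replicate 3 stood apart, with a mean correlation of 0.805 with the other libraries of its group against at least 0.863 for every other library. In it 21443 genes reached 10 counts, the lowest number of all libraries. FPKM is scaled to the library total, and on log2(FPKM + 1) the median tested gene lay 0.36 below N in H12h, 0.22 below in H24h and 0.29 below in R3h. Fold changes below come from counts under trimmed-mean (TMM) scaling, where those medians were -0.07, -0.05 and -0.04, so a gene at an equal FPKM in both groups has a fold change above 0. The 1 added to FPKM shrinks the shift of genes of low level, so these medians understate the distance between the scales. MPC1 110499396, for example, averaged 31.8 FPKM in N and 34.3 in H12h, and its fold change from counts was 1.55.

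Both copies of MPC1 rose in R3h against N, and they were the only 2 of the 15 tested genes called in any of 6 pairwise comparisons by edgeR's quasi-likelihood test (Benjamini-Hochberg adjusted p under 0.05). The same 2 were called when the test asked for a difference anywhere among the 5 groups, where 7.24% of 17502 tested genes were called. In R3h against N, 5.34% of all tested genes were called, 3.55% higher and 1.79% lower. The split depends on scaling: edgeR called 621 genes higher and 314 lower there, and limma on log2(FPKM + 1) called 324 higher and 1568 lower. Limma called 2 genes of the set higher and 1 lower in that comparison. In H12h and H24h against N the splits were 34 to 5 and 22 to 13 by edgeR, and 17 to 7 and 16 to 33 by limma. No gene of the set was called by edgeR in the other 5 comparisons. The shares of all tested genes called there were 0% for H3h, 0.223% for H12h and 0.2% for H24h, each against N, and 0% for H24h against H12h and for R3h against H24h. An unadjusted p under 0.05 was found for 0, 2, 6 and 8 of the 15 genes in H3h, H12h, H24h and R3h against N, where 2.19%, 14.3%, 19.7% and 26.6% of all tested genes had one. It was found for 4 in H24h against H12h and for 5 in R3h against H24h, beside 14.5% and 7.36% of all tested genes. DESeq2 called 0, 1, 2 and 7 of the 15 genes in the comparisons of H3h, H12h, H24h and R3h with N, and 0.08%, 4.73%, 7.2% and 15.9% of all tested genes. It called 1 in H24h against H12h and 0 in R3h against H24h, beside 4.59% and 0.291%. Its 7 genes in R3h against N were 4 higher and 3 lower. An adjusted p above the threshold does not show that 2 groups were alike.

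MPC1 pairs with MPC2 in the carrier and is unstable without it in mammals, and both trout copies of MPC1 were tested. The copy 110499396 lies on chromosome 20 (32384521 to 32387459, plus strand, in the deposited table's coordinates, whose genome build is not given in the sources used here). Its level was 29.97, 29.22 and 36.06 FPKM in N, 40.45, 23.76 and 50.1 in H3h, and 33.26, 34.73 and 35.01 in H12h. It was 43.88, 52.36 and 81.6 FPKM in H24h and 90.79, 89.82 and 195.44 in R3h. All 3 R3h libraries lay above each of the other 12, and all 3 H24h libraries lay above N. The mean was 31.8 ± 3.75 FPKM in N, 59.3 ± 19.8 in H24h and 125 ± 60.7 in R3h (SD, n = 3). In R3h the log2 fold change against N was 2.36 ± 0.39 (SE), or 5.12-fold, with an edgeR adjusted p of 0.0155. In H24h it was 1.21 ± 0.37 with an edgeR adjusted p of 0.132, and from H24h to R3h it was 1.15 ± 0.37 with 0.67. DESeq2 called the H24h difference from N, with an adjusted p of 0.0281, in a comparison where it called 7.2% of all tested genes. Limma on log2(FPKM + 1) did not call it (0.196).

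The highest value of this copy came from R3h replicate 3. Without that library its log2 fold change in R3h against N was 1.93, with an edgeR adjusted p of 0.0167. Without N replicate 1 the adjusted p was 0.0846, and without N replicate 3 it was 0.0796, at log2 fold changes of 2.24 and 2.40.

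The second MPC1 copy, 110502720, lies on chromosome 23 (29263449 to 29272011, plus strand) and was lower in level. It measured 11.84, 14.18 and 18.48 FPKM in N, 10.4, 14.61 and 22.01 in H3h, and 14.33, 13.77 and 12.3 in H12h. It measured 48.95, 28.91 and 47.37 FPKM in H24h and 44.33, 54.65 and 27.23 in R3h. All 6 libraries of H24h and R3h thus lay above all 9 of N, H3h and H12h, and the 2 later groups overlapped each other. The mean was 14.8 ± 3.37 FPKM in N, 41.7 ± 11.1 in H24h and 42.1 ± 13.8 in R3h (SD, n = 3). The log2 fold change against N was 1.87 ± 0.37 in R3h, or 3.66-fold, with an edgeR adjusted p of 0.0214. In H24h it was 1.76 ± 0.37 with an edgeR adjusted p of 0.0773, a difference of similar size that edgeR did not call. DESeq2 called it, with an adjusted p of 0.000486, and limma on log2(FPKM + 1) did not (0.0766).

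Between H12h and H24h this copy differed by 1.38 ± 0.36 on the log2 scale (edgeR adjusted p = 0.13), and between H24h and R3h by 0.11 ± 0.36. DESeq2 called the difference between H12h and H24h, with an adjusted p of 0.0132, and limma on log2(FPKM + 1) did not (0.109). Without R3h replicate 3 the log2 fold change in R3h against N was 2.13 with an edgeR adjusted p of 0.0153. Without N replicate 1 it was 1.67 with 0.104, and without N replicate 3 it was 1.99 with 0.105. Leaving R3h replicate 3 out of the fit also changed the comparison of H24h with N. That comparison uses this library only through the filter, the scaling, the shared estimate of the spread and the adjustment over genes. There the edgeR adjusted p became 0.0312 for this copy and 0.0484 for 110499396.

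Counts summed over both MPC1 copies gave a log2 fold change of 2.23 ± 0.33 in R3h against N, with an edgeR adjusted p of 0.00985. The summed level was 46.6 ± 6.94 FPKM for N, 53.8 ± 17.1 for H3h, 47.8 ± 0.622 for H12h, 101 ± 24.9 for H24h and 167 ± 48.1 for R3h. The chromosome 20 copy was 2.18 ± 0.308 times the chromosome 23 copy in N and 1.48 ± 0.505 times in H24h. In R3h that ratio spread from 1.64 to 7.18, with the top value from replicate 3, the library with the highest level of one copy and the lowest R3h level of the other.

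**Figure D1:**
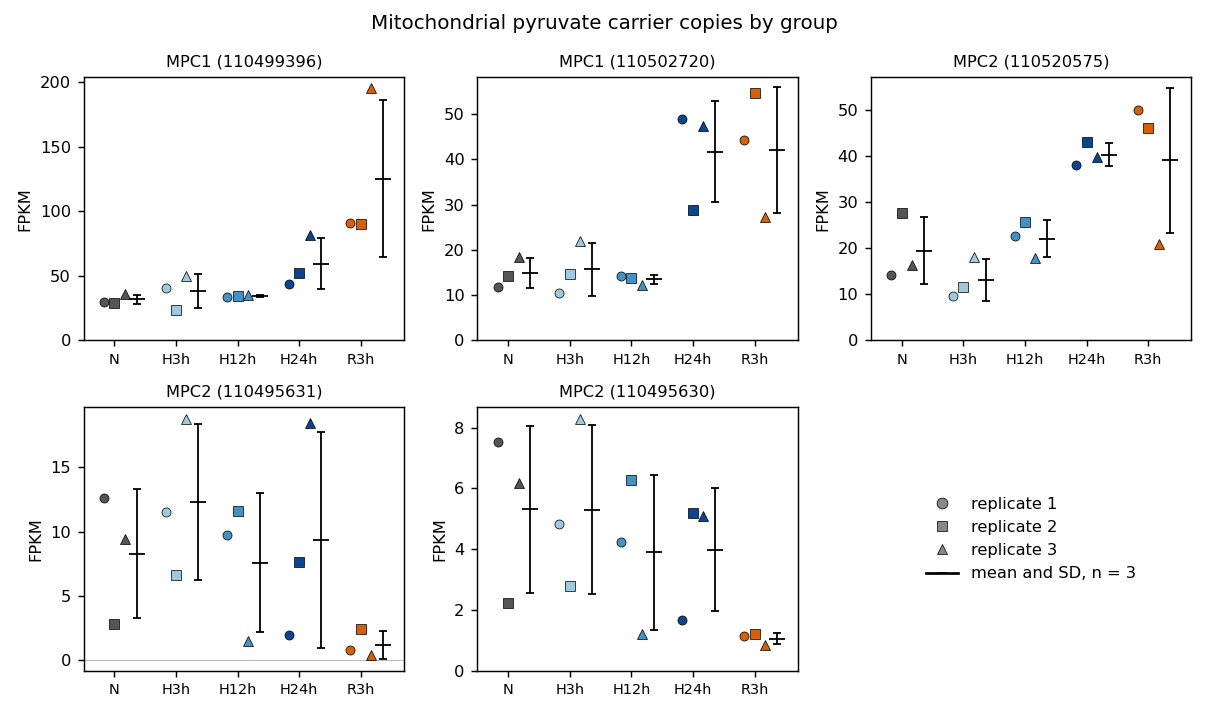
FPKM of the 5 mitochondrial pyruvate carrier genes (vertical axes, scaled separately) in the 5 groups, with 1 point per library, shapes for replicates, and a bar for the mean with its SD (n = 3). MPC1 110499396 lies between 89.82 and 195.44 in R3h, above every other library, while the MPC2 copies 110495631 and 110495630 are at 2.42 or less there.

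MPC2 is the other subunit, and its 3 copies did not go the same way. The chromosome 3 copy, 110520575 (76201966 to 76207637, minus strand), measured 14.25, 27.75 and 16.28 FPKM in N, 9.61, 11.56 and 18.18 in H3h, and 22.65, 25.74 and 17.86 in H12h. It measured 38.11, 43.05 and 39.72 FPKM in H24h and 50.12, 46.15 and 21.01 in R3h. All H24h libraries lay above those of N, H3h and H12h, whereas in R3h replicates 1 and 2 did and replicate 3 fell among them. The log2 fold change against N was 1.33 ± 0.47 in H24h (edgeR adjusted p = 0.165) and 1.33 ± 0.47 in R3h (0.099), and edgeR called neither. Of 12 alternative fits of R3h against N, 2 called this copy, DESeq2 among them. The test of any difference among the 5 groups gave an edgeR adjusted p of 0.0513, and 0.0226 without R3h replicate 3. Without that library the log2 fold change in R3h against N was 1.66, with an edgeR adjusted p of 0.0503.

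The other 2 MPC2 copies lie on chromosome 18 about 149 kb apart, on the plus strand. The copy 110495631 (9157885 to 9167924) measured 12.58, 2.79 and 9.45 FPKM in N, 11.55, 6.61 and 18.71 in H3h, and 9.71, 11.59 and 1.47 in H12h. It measured 1.99, 7.61 and 18.42 FPKM in H24h and 0.77, 2.42 and 0.39 in R3h. All R3h libraries lay below N, while H12h and H24h each held a library within the R3h range. Its log2 fold change in R3h against N was -2.35 ± 0.90 (edgeR adjusted p = 0.123), and -1.93 without R3h replicate 3 (0.214). Of 12 alternative fits of this comparison, 1 called it.

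The copy 110495630 (9317237 to 9324626) measured 7.51, 2.23 and 6.19 FPKM in N, 4.82, 2.8 and 8.29 in H3h, 4.22, 6.26 and 1.2 in H12h, and 1.66, 5.2 and 5.09 in H24h. It measured 1.13, 1.21 and 0.84 FPKM in R3h. The R3h libraries again lay below N and also below H24h, while H12h replicate 3, at 1.2 FPKM, was within the R3h range. The log2 fold change in R3h against N was -1.86 ± 0.67 (edgeR adjusted p = 0.103), and -1.69 without R3h replicate 3 (0.172). Here too 1 of 12 alternative fits called the difference.

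The chromosome 18 copies were low in the same libraries, N replicate 2, H12h replicate 3 and H24h replicate 1 among them. Their log2(FPKM + 1) values had a Pearson correlation of 0.949 over the 15 libraries, which share library and depth between the 2 genes. Neighbouring copies of near-identical sequence can share reads, and how alike these are was not analysed here. Over the same libraries the correlation was 0.68 between the 2 MPC1 copies and 0.822 between MPC1 110502720 and MPC2 110520575. Between MPC2 110520575 and 110495631 it was -0.343.

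A ratio chosen after the values were seen sets the chromosome 3 copy against the summed chromosome 18 copies of MPC2. It ran from 0.709 to 5.53 for N, from 0.587 to 1.23 for H3h, from 1.44 to 6.69 for H12h, from 1.69 to 10.4 for H24h and from 12.7 to 26.4 for R3h. All R3h libraries had a higher ratio than all 12 others, and no test is given because the ratio was picked from these values. Summed over its 3 copies, MPC2 had a log2 fold change of 0.98 ± 0.45 in R3h against N (edgeR adjusted p = 0.18). The sum was 33.0 ± 1.23 FPKM in N, 53.6 ± 10.9 in H24h and 41.3 ± 16.6 in R3h. Summed MPC1 was 1.42 ± 0.258 times summed MPC2 in N, 1.79 ± 0.183 times in H3h, 1.57 ± 0.641 times in H12h and 1.91 ± 0.401 times in H24h. In R3h it was 2.60 to 10.01 times, and replicate 3 gave the highest value.

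All 5 carrier genes together summed to 79.6 ± 5.95 FPKM for N, 84.5 ± 29.7 for H3h, 81.4 ± 12.4 for H12h, 155 ± 32.6 for H24h and 209 ± 31.5 for R3h. The lowest H24h library, at 134.59 FPKM, lay above the highest of N, H3h and H12h, at 117.29. Red blood cell markers were also higher in all H24h libraries than in all N libraries, and their part in the carrier levels was not tested. In a bulk tissue, fewer cells of a type cannot be told apart from less RNA per cell.

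**Figure D2:**
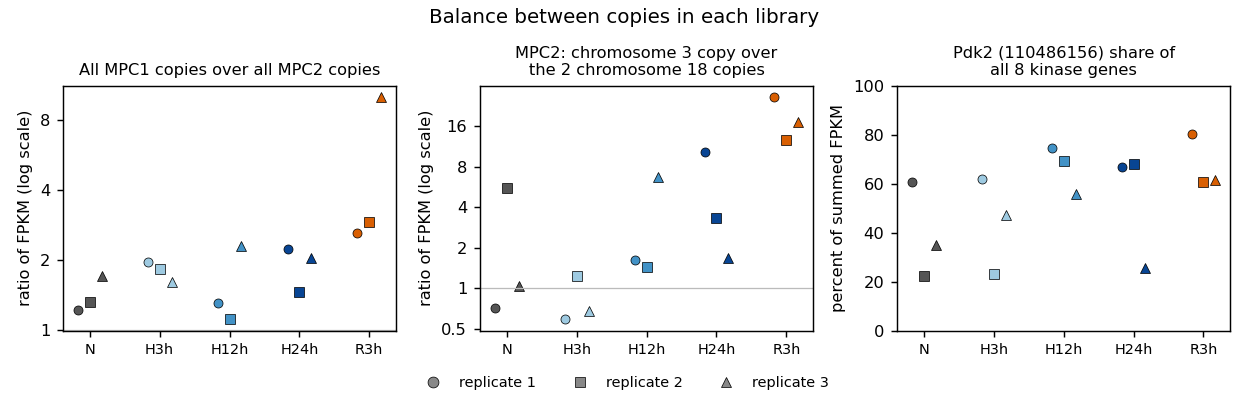
Ratios within each library, with 1 point per library and shapes for replicates. Left and middle, on log scales, are summed MPC1 over summed MPC2 and the MPC2 copy of chromosome 3 over the 2 copies of chromosome 18, which is 12.7 to 26.4 in R3h; right is the percent of all 8 kinase genes' FPKM that comes from Pdk2 110486156.

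By edgeR on all libraries, none of the pyruvate dehydrogenase kinases was called in any comparison. The kinase of highest level was Pdk2 110486156 on chromosome 13 (30965955 to 30974404, minus strand). It measured 10.07, 3.75 and 5.27 FPKM in N, 13.35, 2.16 and 9.27 in H3h, and 23.98, 19.9 and 9.0 in H12h. It measured 23.91, 15.43 and 3.45 FPKM in H24h and 26.11, 14.15 and 11.34 in R3h. The R3h libraries lay above all of N, whereas H12h and H24h each had a replicate 3 below the highest N library. Replicate 1 held the highest value in all 5 groups.

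Means were 6.36 ± 3.30 FPKM for N, 8.26 ± 5.66 for H3h, 17.6 ± 7.74 for H12h, 14.3 ± 10.3 for H24h and 17.2 ± 7.84 for R3h (SD, n = 3). In rising order the groups ran N, H3h, H24h, R3h and H12h, and every neighbouring pair in that order overlapped. The log2 fold changes in H3h, H12h and H24h against N were 0.32 ± 0.71, 2.09 ± 0.74 and 1.59 ± 0.73, with edgeR adjusted p-values of 1, 0.218 and 0.249. In R3h against N the value was 1.91 ± 0.74 with an edgeR adjusted p of 0.124, and without R3h replicate 3 it was 2.19 with 0.0975. DESeq2 called that comparison, with an adjusted p of 0.0423.

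Pdk2 110486156 supplied 39.4 ± 19.6% of the FPKM summed over all 8 kinase genes in N and 44.2 ± 19.5% in H3h. Its share was 66.6 ± 9.85% for H12h, 53.4 ± 24.2% for H24h and 67.7 ± 11.2% for R3h. The shares of single libraries ran from 22.5 to 60.9% in N and from 55.7 to 74.8% in H12h, so the 2 groups overlapped. The summed kinase level was 16.1 ± 0.873 FPKM for N, 16.8 ± 6.60 for H3h, 25.7 ± 8.38 for H12h, 24.02 ± 11.2 for H24h and 24.7 ± 7.11 for R3h. Counts summed over the 5 genes named PDK2 had a log2 fold change of 1.37 ± 0.55 in H12h against N, with an edgeR adjusted p of 0.277.

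**Figure D3:**
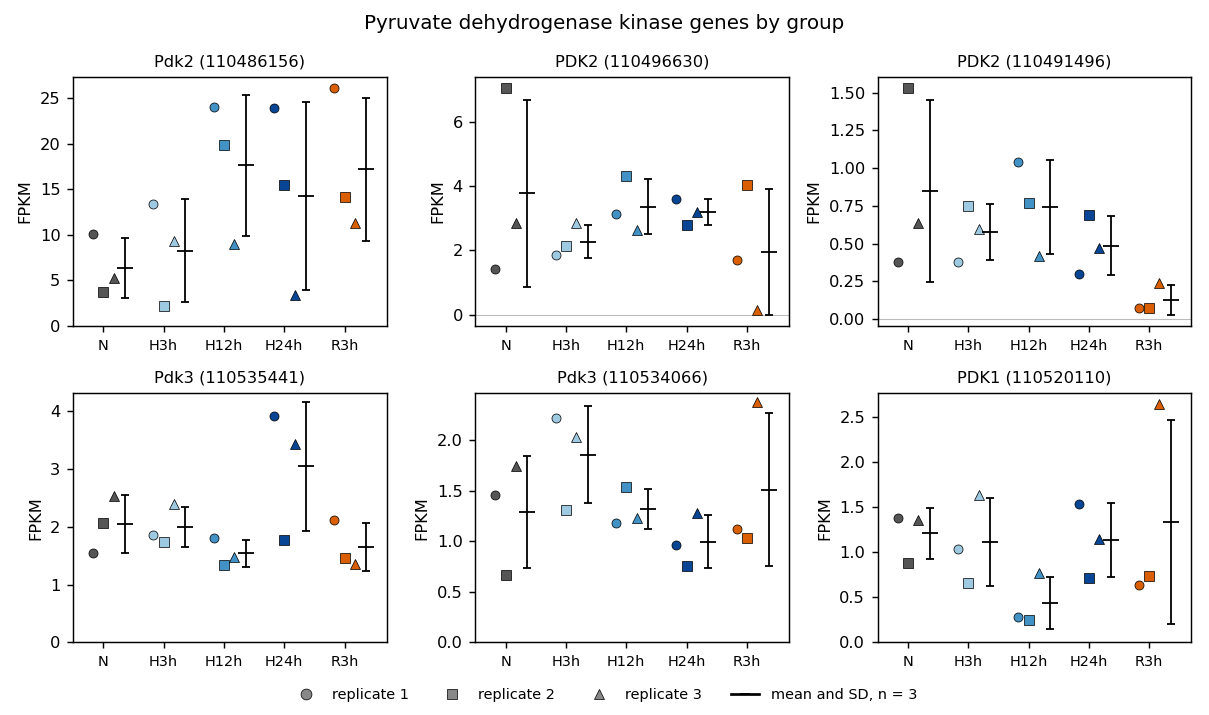
FPKM of the 6 tested pyruvate dehydrogenase kinase genes (vertical axes, scaled separately) by group, with 1 point per library and a bar for the mean with its SD (n = 3). Pdk2 110486156 is the only one above 10 FPKM, and PDK2 110491496 lies at 0.24 or less in all R3h libraries.

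The other genes named PDK2 were lower in level. The gene 110496630 on chromosome 18 (51306315 to 51321527, plus strand) is named PDK2 in the deposited table and pdk4 in RefSeq, so its identity is uncertain. PDK4 is the kinase best known for its rise on fasting in mammals. It measured 1.43, 7.04 and 2.85 FPKM in N, 1.85, 2.13 and 2.85 in H3h, 3.12, 4.31 and 2.65 in H12h, and 3.61, 2.79 and 3.18 in H24h. In R3h it measured 1.7, 4.02 and 0.14 FPKM. All groups overlapped with N, N and R3h spread most, and none of its 6 pairwise comparisons reached an unadjusted p of 0.05.

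PDK2 110491496 on chromosome 16 (15411964 to 15422538, minus strand), pdk2a in RefSeq, was near the filter at a mean of 0.557 FPKM. It measured 0.38, 1.53 and 0.64 FPKM in N, 0.38, 0.75 and 0.6 in H3h, 1.04, 0.77 and 0.42 in H12h, and 0.3, 0.69 and 0.47 in H24h. In R3h it measured 0.07, 0.07 and 0.24 FPKM, from 16, 14 and 40 counts, below every library of the other groups. The log2 fold change in R3h against N was -2.43 ± 0.75, with an edgeR adjusted p of 0.0689. Without R3h replicate 3 it was -3.17 with an edgeR adjusted p of 0.0446. That fit was 1 of 2 that called it, among 11 alternatives.

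PDK3 is a kinase of low abundance in most mammalian tissues. Pdk3 110535441 on chromosome 11 measured 1.54, 2.06 and 2.54 FPKM in N, 1.85, 1.74 and 2.4 in H3h, 1.8, 1.34 and 1.48 in H12h, and 3.93, 1.78 and 3.43 in H24h. In R3h it measured 2.12, 1.46 and 1.35 FPKM. H24h held the 2 highest libraries and 1 within the N range, and its log2 fold change against N was 0.82 ± 0.33 (edgeR adjusted p = 0.202). Pdk3 110534066 on chromosome 10 measured 1.46, 0.67 and 1.74 FPKM in N, 2.22, 1.31 and 2.03 in H3h, 1.18, 1.54 and 1.23 in H12h, 0.96, 0.75 and 1.28 in H24h, and finally 1.12, 1.03 and 2.38 in R3h. Every group of it overlapped with N.

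PDK1, a well known HIF-1 target in mammals, did not exceed 2.64 FPKM. The gene 110520110 on chromosome 3 (52690645 to 52694338, plus strand) measured 1.38, 0.88 and 1.36 FPKM in N, 1.04, 0.66 and 1.63 in H3h, and 0.28, 0.25 and 0.77 in H12h. It measured 1.53, 0.71 and 1.15 FPKM in H24h and 0.63, 0.73 and 2.64 in R3h. H12h lay below N in all libraries, with a log2 fold change of -0.99 ± 0.55 (edgeR adjusted p = 0.429). From H12h to H24h it was 1.19 ± 0.55 (0.343). The kinase genes under the filter were Pdk2 110538080, the nearest to it at 0.473 FPKM and at most 1.29, and 110488016, named both Pdk2 and Pdk4, at 0.285.

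Lactate dehydrogenase RNA in these livers was almost wholly 1 gene of the B type, the form that prevails in heart and in other oxidative tissue. The ldhb gene 110500268 on chromosome 21 (24116973 to 24131297, plus strand) supplied at least 99.6% of the FPKM of all 6 lactate dehydrogenase genes in every library. It measured 164.05, 269.0 and 175.84 FPKM in N, 141.06, 168.92 and 235.46 in H3h, and 225.48, 182.5 and 268.34 in H12h. It measured 368.92, 280.99 and 318.98 FPKM in H24h and 279.85, 301.77 and 220.56 in R3h. All H24h libraries lay above those of N, H3h and H12h, by a narrow margin over N replicate 2. The log2 fold change in H24h against N was 0.93 ± 0.36 (edgeR adjusted p = 0.189), and in R3h it was 0.72 ± 0.36 (0.212).

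The A type, which prevails in white muscle and is the HIF-1 target of mammals, was found at trace levels. The ldha gene 110490604 on chromosome 2 averaged 0.165 FPKM and did not exceed 0.7, and the ldha gene 110525514 on chromosome 1 averaged 0.0047. The second ldhb gene, 110490189, averaged 0.186 FPKM, ldhba 110500186 averaged 0.0107 and ldhc 110524881 averaged 0.0127. None of these 5 reached the filter. With no filter, the smallest edgeR adjusted p among them for a difference anywhere among the 5 groups was 0.519.

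**Figure D4:**
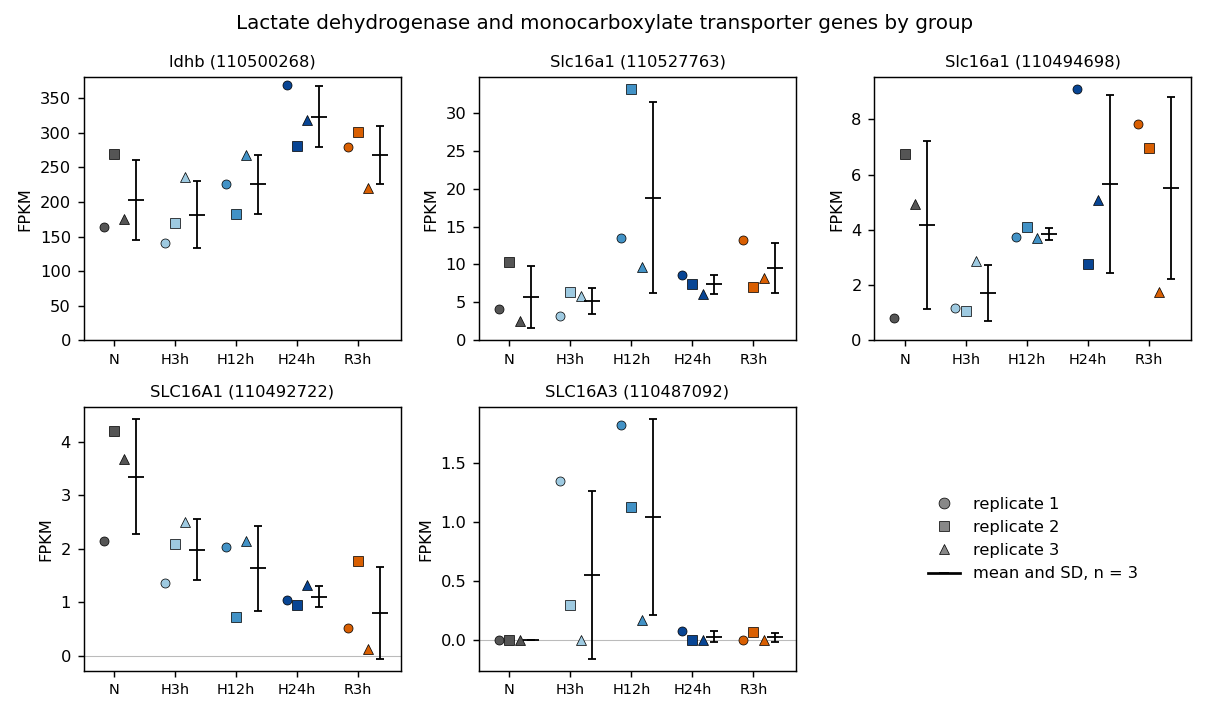
FPKM of ldhb and of 4 monocarboxylate transporter genes (vertical axes, scaled separately) by group, with 1 point per library and a bar for the mean with its SD (n = 3). SLC16A3 110487092 is at 0 in all N libraries and reaches 1.82 in H12h, and Slc16a1 110527763 has its 2 highest libraries in H12h.

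The monocarboxylate transporter MCT1, made from slc16a1, moves lactate and pyruvate with protons in either direction, and 3 copies were tested. The highest was Slc16a1 110527763 on chromosome 7 (32232338 to 32244729, minus strand), slc16a1a in RefSeq. It measured 4.15, 10.31 and 2.53 FPKM in N, 3.16, 6.38 and 5.79 in H3h, and 13.51, 33.16 and 9.72 in H12h. It measured 8.62, 7.38 and 6.14 FPKM in H24h and 13.22, 7.0 and 8.27 in R3h. The H12h libraries overlapped N by 1 library, since N replicate 2 exceeded H12h replicate 3, and lay above all of H24h. The log2 fold change in H12h against N was 2.22 ± 0.67 with an edgeR adjusted p of 0.159, and DESeq2 called it at 0.0197. From H12h to H24h it was -1.61 ± 0.66 (edgeR adjusted p = 0.285).

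Slc16a1 110494698 on chromosome 17 measured 0.82, 6.74 and 4.95 FPKM in N, 1.18, 1.08 and 2.87 in H3h, 3.74, 4.11 and 3.7 in H12h, 9.12, 2.77 and 5.08 in H24h, and finally 7.82, 6.97 and 1.76 in R3h. Every group overlapped with N. SLC16A1 110492722 on chromosome 16 measured 2.14, 4.21 and 3.68 FPKM in N, 1.36, 2.08 and 2.49 in H3h, 2.03, 0.72 and 2.15 in H12h, 1.03, 0.95 and 1.32 in H24h, and finally 0.51, 1.77 and 0.12 in R3h. H24h and R3h lay below N in all libraries. Its log2 fold change against N was -1.34 ± 0.67 in H24h (edgeR adjusted p = 0.289) and -1.78 ± 0.68 in R3h (0.123). The R3h value was -1.27 without R3h replicate 3 (0.155) and -2.91 without R3h replicate 2 (0.0183). The latter was 1 of 2 fits that called it, among 12 alternatives.

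MCT4, made from SLC16A3 and known in mammals as the lactate exporter of glycolytic cells, was found at a trace level. The gene of this product with the highest mean, 110487092 on chromosome 13 (63869386 to 63875514, minus strand), had 0 counts in all 3 N libraries. It had 72, 13 and 0 counts in H3h, 90, 43 and 10 in H12h, 4, 0 and 0 in H24h, and then 0, 4 and 0 in R3h. Its levels were 1.35, 0.3 and 0 FPKM in H3h and 1.82, 1.13 and 0.17 in H12h. All H12h libraries thus lay above all N libraries, and H3h replicate 3 did not. Under counting error alone, 0 counts would allow about 3 counts over the 167.5 M of the N group. Set against that limit, the summed level was 25.1-fold higher in H3h and 46.2-fold higher in H12h. These ratios rest much on single libraries: without H3h replicate 1 the first was 5.86-fold, and without H12h replicate 1 the second was 26.4-fold. Leaving out an N library, which raises the limit, gave 15.6-fold to 18.3-fold and 28.8-fold to 33.7-fold. Leaving out replicate 3 of H3h or H12h gave 40.0-fold and 69.3-fold. The ratios are not lower bounds, since the H3h and H12h counts carry no allowance for counting error or for spread between samples. No gene of the set had a count above 0 and below 4 in any library, so a deposited 0 may hide a smaller count.

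At a mean of 0.328 FPKM this gene was under the filter. With no filter its unadjusted p in H12h against N was 0.00155, with an edgeR adjusted p of 0.131, and for any difference among the 5 groups the adjusted p was 0.0579. The 2 other genes named SLC16A3 averaged 0.0393 FPKM (110502876, whose product the table gives as monocarboxylate transporter 3) and 0.004 FPKM (110499232). The product of 110499232 is given as monocarboxylate transporter 4, as for 110487092, and of these genes only 110499232 is slc16a3 in RefSeq.

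**Figure D5:**
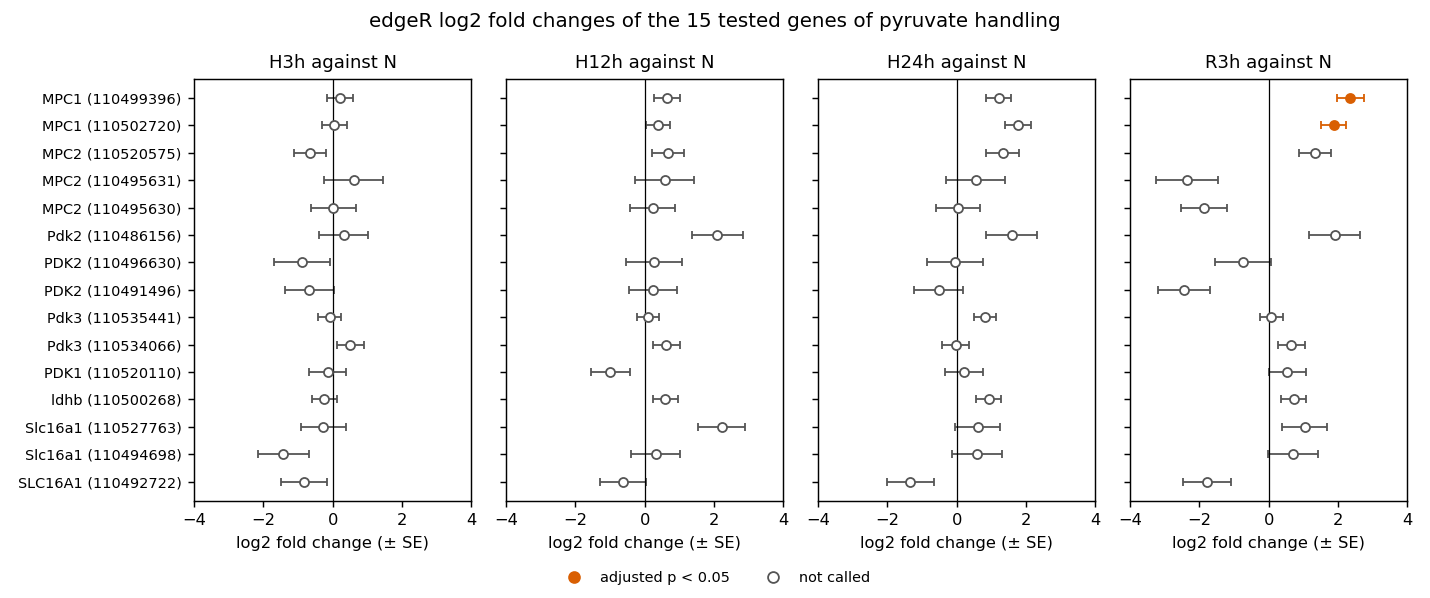
Log2 fold changes (horizontal axes, with SE) of the 15 tested genes against N in H3h, H12h, H24h and R3h, from edgeR on counts. Filled points mark an adjusted p under 0.05, which only MPC1 110499396 (2.36) and MPC1 110502720 (1.87) have, both in R3h.

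Read across the whole set, the fold change against N was above 0 for 6 of the 15 tested genes at H3h, 13 at H12h, 11 at H24h and 10 at R3h. Over all tested genes it was above 0 for 50.1%, 46.1%, 47.7% and 48.4%. The median log2 fold change of the set was -0.14, 0.39, 0.59 and 0.66 in the same order, where that of all tested genes was 0.001, -0.07, -0.05 and -0.04. These signs and medians depend on the TMM scaling. Several genes with an H12h fold change above 0 had a lower mean FPKM in H12h than in N. They were MPC1 110502720, MPC2 110495631 and 110495630, Slc16a1 110494698, PDK2 110496630 and 110491496, and Pdk3 110535441. Of the 65 fold changes of the set with an unadjusted p of 0.05 or more, over all 6 pairwise comparisons, 41 changed sign under at least 1 alternative. These comparisons share N, and genes that passed the filter may have done so through the group in which they are high.

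Groups that did not overlap in FPKM were counted beside the same count over all tested genes. In H3h against N there was none in the set, against 6.68% of all genes. In H12h there was 1 gene, lower (PDK1), against 28% of all genes lower and 3.71% higher. In H24h 4 genes were higher (both MPC1 copies, MPC2 110520575 and ldhb) and 1 was lower (SLC16A1 110492722), against 8.08% and 19.4%. In R3h 3 were higher (both MPC1 copies and Pdk2 110486156), against 6.93%. A further 4 were lower there (both MPC2 copies of chromosome 18, PDK2 110491496 and SLC16A1 110492722), against 21.6%. In H24h against H12h 4 were higher and 1 lower, against 15.1% and 6.74% of all genes, and in R3h against H24h 1 was higher and 2 lower, against 2.17% and 4.34%.

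A list of 23 further gene symbols of pyruvate's fate matched 50 genes, of which 32 were tested. It covered the subunits and phosphatases of the pyruvate dehydrogenase complex, pyruvate carboxylase, pyruvate kinase, alanine transaminases, citrate synthase and transporter partners. By edgeR none of the 32 was called in any of the 6 pairwise comparisons. For a difference anywhere among the 5 groups 2 were called, a share near the 7.24% of all tested genes. An unadjusted p under 0.05 against N was found for 0 at H3h, 2 at H12h, 3 at H24h and 8 at R3h, beside 2.19%, 14.3%, 19.7% and 26.6% of all tested genes. None of these shares of the list was above that of all genes. The median log2 fold changes were -0.06, 0.13, -0.08 and 0.05. The list's symbol dld also matched 3 genes of Delta-like protein D, none of which passed the filter.

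The 2 called genes were SLC16A6 110499208, a relative of the monocarboxylate transporters, and PFKFB3 110490358, a kinase that makes the activator of phosphofructokinase. SLC16A6 averaged 13.4 ± 4.80 FPKM for N, 17.5 ± 2.92 for H3h, 24.3 ± 5.76 for H12h, 11.2 ± 3.80 for H24h and 16.3 ± 3.45 for R3h, with an edgeR adjusted p of 0.0277. Its log2 fold change was 1.40 ± 0.28 in H12h against N (edgeR adjusted p = 0.0607) and -1.35 ± 0.28 from H12h to H24h (0.0697). The first was called in 4 of 14 alternative fits and the second in 2 of 14. PFKFB3 measured 2.78, 0.07 and 0.38 FPKM in N, 3.98, 5.98 and 1.13 in H3h, and 3.77, 6.36 and 0.4 in H12h. It did not exceed 0.21 FPKM in H24h or 0.07 in R3h, and its edgeR adjusted p was 0.0373. Alternative fits called PFKFB3 in 2 of 13 for R3h against N and in 1 of 14 for H24h against H12h. Limma on FPKM lost the SLC16A6 call, with an adjusted p of 0.152. So did edgeR with a replicate block. So did edgeR without N replicate 3, H3h replicate 1, H12h replicate 1 or 2, or H24h replicate 2 or 3, with adjusted p-values from 0.0519 to 0.0685. The PFKFB3 call held in 5 of 15 fits that left out a library, those without N replicate 1 or 2, H12h replicate 3, or R3h replicate 2 or 3. In the other 10 its adjusted p ran from 0.0523 to 0.0800.

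Bsg 110524268 encodes basigin, which brings MCT1 and MCT4 to the cell surface in mammals. Its mean was 122 ± 17.4 FPKM for N, 133 ± 8.97 for H3h, 163 ± 10.9 for H12h, 176 ± 22.5 for H24h and 203.5 ± 31.3 for R3h. H12h, H24h and R3h lay above N in all libraries. The log2 fold changes were 0.92 ± 0.32 in H12h and 1.09 ± 0.32 in R3h, with edgeR adjusted p-values of 0.214 and 0.0613. Alternative fits called Bsg in 1 of 14 for H12h and in 4 of 13 for R3h. The pyruvate kinase gene pkm 110506469, among several tested genes named pkm, had a log2 fold change of 0.77 ± 0.36 in H12h against N (edgeR adjusted p = 0.356). Its mean was 1.95 ± 0.652 FPKM for N and 2.24 ± 0.359 for H12h, and these groups overlapped. Over the alternative fits its log2 fold change ran from 0.15 to 1.03.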

How the data were processed

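The authors deposited 1 table with raw counts and FPKM per gene for every library, per the file headers. The submitters' processing notes name TopHat2 2.1.1 and Bowtie2 2.2.8. Which genome build, annotation and counter were used is not given in the sources. For genes well counted in every library, counts and FPKM gave nearly the same gene length throughout (median coefficient of variation 0.167%). Genes of low count were not part of that check. A RefSeq table (assembly USDA_OmykA_1.1) held all 25 genes of the set, 6 with a symbol of their own. No coordinates were taken from it. Counts were fitted with edgeR's quasi-likelihood test, 5 group means in 1 fit, TMM scaling, classic quasi-dispersion, and a minimum mean FPKM of 0.5. P-values were two-sided and Benjamini-Hochberg adjusted over all 17502 tested genes. The SE is the log2 fold change over the root of F. The procedure was tried on simulated counts with known changes placed in H12h only. No library was made to stand apart there, as R3h replicate 3 did, so that trial does not cover it. The set, the pathway list and the tests were chosen with earlier results of these data known. Every tested gene of the set is named. From the pathway list, called genes, another copy of SLC16A6 and the 3 of smallest p in H12h against N are named. Near-identical trout copies can share reads, so single copies are less certain than sums. EdgeR 4.0.16, DESeq2 1.42.0 and limma 3.58.1 ran under R 4.3.3. Alternatives were RLE size factors, no filter, DESeq2, limma on log2(FPKM + 1), copies summed, a replicate block and leaving out each library.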

Additional observations from a re-analysis of the deposited data

How the results depend on the processing

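Alternatives were followed one by one for 36 fold changes, 25 of the set with an unadjusted p under 0.05 and 11 of named pathway genes. Of their 485 recomputed values, 446 kept their direction and side of the threshold, 30 came past it, 4 lost it (both MPC1 copies in R3h against N, without N replicate 1 or 3) and 5 changed sign. Of these, the 233 that left out a library kept their sign. Among the other 65 fold changes of the set, none called by edgeR, 31 changed sign when a library was left out, and 34 under some alternative other than summing. DESeq2 called 7 genes of the set for any difference among the groups, 1 in H12h against N, 2 in H24h, 7 in R3h and 1 in H24h against H12h. With copies summed, 1 was called for any difference and 1 in R3h against N, both summed MPC1. Leaving out 1 library gave 2 to 5 genes for any difference and 0 to 3 in R3h against N. It gave 0 in H24h against N, except 2 without R3h replicate 3, a fit added after the data were seen, as was edgeR's newer quasi-dispersion. The 5 sign changes among the 36 came from summing: 1.03 (R3h against N) and 0.11 (R3h against H24h) for PDK2 110491496, 0.63 for SLC16A1 110492722 and 0.98 for MPC2 110495630 and 110495631 in R3h against N, where the sum follows the larger copy.

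The labels do not say whether the replicate numbers pair the samples. In deviations from the group means, 30 same-numbered pairs had correlations from -0.264 to 0.424, 10 of them over 0.1. Differently numbered pairs were not compared, so these values cannot decide whether the numbers mark a pairing. With a replicate block, edgeR called 613 genes for any difference and 628 in R3h against N, both MPC1 copies among each. It called 15 in H12h, 0 in H24h and 1 in H24h against H12h, and SLC16A6 110499208 lost its call (0.0526). Over all genes, leaving out 1 library gave 209 to 2670 calls for any difference, 7 to 2457 in R3h, 0 to 547 in H12h and 0 to 195 in H24h, where the added fit without R3h replicate 3 gave 686. DESeq2 called 4502, 2777, 827 and 1261, 14 in H3h, and 804 in H24h against H12h and 51 in R3h against H24h.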

Other observations

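Among 4960 named genes outside the set with a mean of at least 5 FPKM, those most like Pdk2 110486156 were taken by Pearson correlation of log2(CPM + 1) over the 15 libraries. They were Rpl29 (0.778), CBS (0.696), Ulk1 (0.680), NCEH1 (0.677) and FKBP5 (0.672). Rpl29 averaged 244 ± 32.6 FPKM in N and 362 ± 43.2 in H12h, CBS 7.83 ± 1.80 and 19.0 ± 9.49, and NCEH1 15.7 ± 3.81 and 32.6 ± 5.20. Ulk1 averaged 3.457 ± 0.7147 FPKM in N and 14.02 ± 5.959 in H12h, and FKBP5 4.347 ± 4.553 and 49.72 ± 33.25. In H24h and R3h the means were 381.9 and 368.3 FPKM for Rpl29, 15.38 and 12.28 for CBS, and 26.47 and 33.28 for NCEH1. For Ulk1 they were 8.113 and 10.67 FPKM, and for FKBP5 9.13 and 14.86. The libraries share depth and scaling, and these values are a description.

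In R3h against N, copies of PDK2 lay on opposite sides of N. PDK2 110491496 and SLC16A1 110492722 lay below N in every R3h library, as did MPC2 110495631 and 110495630, and another copy of each symbol has a higher mean FPKM. These 4 of 15 tested genes are a share near the 21.6% of all tested genes that lay wholly below N. Of those higher copies, Pdk2 110486156 lay above N in every R3h library, while MPC2 110520575 and Slc16a1 110527763 overlapped with N. These relations were noticed in the values and were not tested.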
